A study of Sus scrofa with 8 samples.

Results

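Signals from the insulin and growth factor receptors are passed on inside the cell by adaptor proteins and by the kinases and ubiquitin ligases that work with them. The genes of 4 such proteins, insulin receptor substrate 1 (IRS1), SHC adaptor protein 1 (SHC1), the ubiquitin ligase and adaptor CBL, and the phosphatidylinositol 3-kinase regulatory subunit PIK3R4, were examined in pig fat. They were found by their gene names among the 458 genes for which the authors deposited expression values per pig. Each of the 4 names matched 1 gene as the authors listed it. The identity of the gene listed as IRS1 carries a limit, given below. The tissue was dorsal subcutaneous fat taken at slaughter from 4 Alentejano (AL) and 4 Bísaro (BI) pigs, with 1 library per pig (AL replicates 44, 49, 52 and 63, and BI replicates 25, 34, 36 and 37). AL is a fat local Portuguese breed and BI a leaner one, and the study asked how fat gene expression differs between them. The pigs, all castrated males of pure breed, were kept free-range and had unrestricted commercial feed, given to each animal separately. The labels give their carcass weight as 150 kg. The methods of the study call it body weight. The AL pigs spent longer on trial, and age at slaughter was not given in the sources used here.

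In adipocytes, insulin binding makes its receptor phosphorylate IRS proteins, which recruit class I phosphatidylinositol 3-kinase and, through AKT, promote glucose uptake and lipid storage and restrain lipolysis. SHC1 binds the same kind of receptor sites and, with GRB2 and SOS, leads to RAS and ERK. CBL works on both sides of the signal. It is an adaptor of a lipid raft branch of insulin signalling that involves flotillin, and it tags active receptors with ubiquitin for removal. PIK3R4, also named VPS15, is the regulatory subunit of the class III kinase PIK3C3, which makes the phosphatidylinositol 3-phosphate of endosomes and autophagosomes. It is not one of the p85-type subunits that bind IRS1.

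The values are normalised counts, that is, reads counted on a gene divided by the size factor that DESeq2 gave that pig. Each value was a whole number of reads times a constant of its pig, so the reads were recovered. Size factors lay between 0.675 and 1.46 and were lower in 3 of the 4 AL pigs than in every BI pig (two-sided exact permutation test, p = 0.057). The 458 genes held 359708 to 883622 reads per pig. They are the genes that the authors had called different between breeds in these same pigs, so a test on them here describes how cleanly the pigs separate and is no independent evidence of a difference. A breed difference is given as log2 FC, the mean log2(normalised count + 1) in AL minus that in BI, with its standard error (SE), and understates the change of genes with few reads. The breed labels were permuted in all 70 ways of dividing 8 pigs into 4 and 4 (an exact permutation test, two-sided). Its smallest possible p is 0.029 and is reached only where the breeds do not overlap. Benjamini-Hochberg adjustment over these chosen 458 genes turns it into 0.036 for every such gene. The adjusted value therefore adds nothing to the lack of overlap.

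Of the 4 genes, SHC1 and the gene listed as IRS1 were higher in every AL pig than in every BI pig. CBL had a higher mean in AL and PIK3R4 a higher mean in BI, but in both 1 pig lay among those of the other breed. So 2 of 4 did not overlap, both higher in AL, where 79.5% of the 458 genes did not overlap in either direction, 48.3% with AL higher and 31.2% with BI higher. The log2 FC was above 0 for 3 of the 4 genes and for 57.4% of the table. limma, edgeR and DESeq2, fitted over the table, called all 4 genes at an adjusted p under 0.05, and also 99.6%, 100% and 100% of the 458 genes. These counts therefore show nothing particular about the 4 genes.

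**Figure D1:**
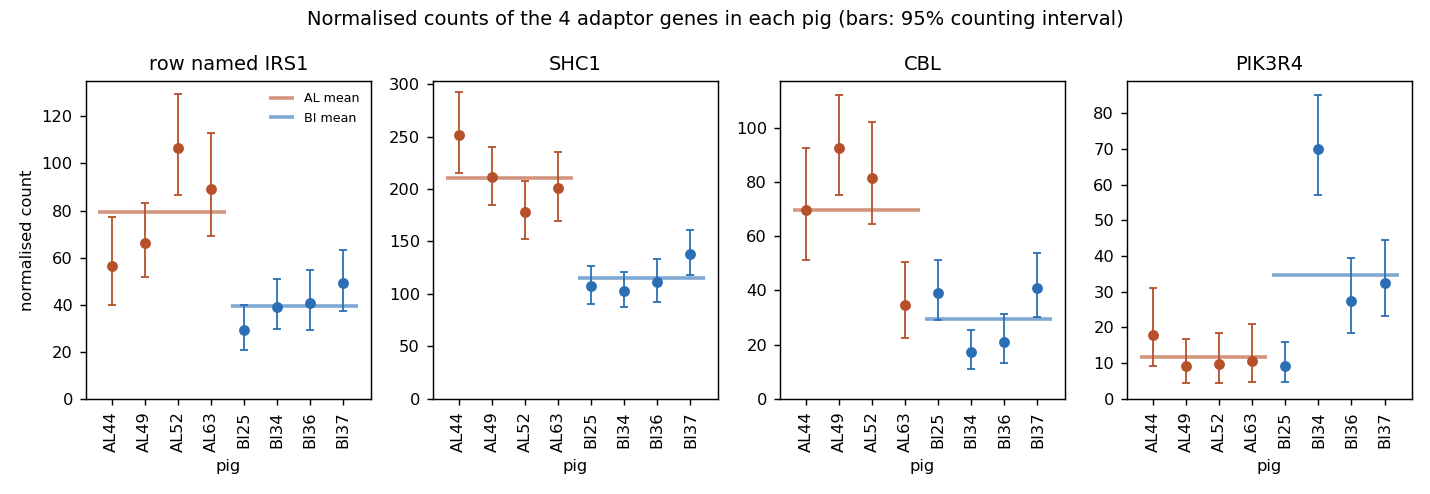
Normalised counts (vertical axes, linear from 0) of the 4 genes in each of the 8 pigs. Points are pigs, bars are exact Poisson 95% intervals of the recovered reads, and horizontal lines are breed means. The AL and BI points of SHC1 and of the gene listed as IRS1 are apart, whereas AL63 in CBL and BI25 in PIK3R4 lie among the other breed.

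IRS1 is the docking protein that hands the insulin signal to class I phosphatidylinositol 3-kinase. The gene listed under this name had 56.3, 66.2, 106 and 89.0 normalised counts in AL replicates 44, 49, 52 and 63, and 29.1, 39.2, 40.6 and 49.2 in BI replicates 25, 34, 36 and 37. The lowest AL pig, AL44, stood above the highest BI pig, BI37, though their counting intervals overlapped. Means were 79.5 ± 22.6 in AL and 39.5 ± 8.24 in BI (SD, n = 4 each), a ratio of 2.01. The log2 FC was 0.97 (SE 0.25; exact permutation p = 0.029, and 0.036 after Benjamini-Hochberg adjustment over the 458 genes). It rested on 277 reads in AL and 197 in BI.

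The identity of this gene carries a limit. Its identifier in the deposited values is ENSSSCG00000007665, which the reference name table pairs with no symbol. That table gives IRS1 as ENSSSCG00000025729, whose deposited mean over the 8 pigs was 3.70 normalised counts, against 59.5 for the identifier listed as IRS1. RefSeq places IRS1 on the minus strand of chr15:128245846-128307321 (Sscrofa11.1). It also annotates an insulin receptor substrate 1-like gene on chr3:8494536-8497349, and no table used here links either position to the identifier. The values above are therefore those of the gene the authors listed as IRS1, and no position is given for it.

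SHC1 couples active receptors to the RAS and ERK branch, and its longest protein form also takes part in oxidative stress responses. In the same order of pigs, it had 252, 211, 178 and 201 normalised counts in AL, against 107, 103, 111 and 138 in BI. Every AL pig was above every BI pig, and the gap between AL52 and BI37 was wider than the SD of either breed. Means were 211 ± 30.7 in AL and 115 ± 15.9 in BI (SD, n = 4 each), a ratio of 1.83. The log2 FC was 0.87 (SE 0.14; exact permutation p = 0.029, and 0.036 after Benjamini-Hochberg adjustment over the 458 genes). Of the 4 genes, SHC1 had the most reads, 720 in AL and 574 in BI, and the smallest spread between pigs. Its coefficient of variation (SD over mean) was 14.6% in AL and 13.9% in BI, against 7.60% and 8.40% from counting alone and a median of 24.0% and 33.0% over the 458 genes.

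SHC1 lies on the plus strand of chr4:94818226-94831766 with 14 exon blocks and 5547 bp of exon. At its start, 111 bp of exon overlap CKS1B, a gene of the opposite strand. PYGO2 starts 513 bp downstream on the same strand.

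CBL attaches ubiquitin to active receptors and, as an adaptor, joins the raft branch of insulin signalling. Normalised counts were 69.6, 92.5, 81.7 and 34.5 in AL, against 39.0, 17.2, 20.8 and 40.8 in BI. In all, 3 AL pigs stood above all BI pigs, but AL63 lay below BI25 and BI37. Means were 69.6 ± 25.2 in AL and 29.4 ± 12.2 in BI (SD, n = 4 each), with a log2 FC of 1.22 (SE 0.44; exact permutation p = 0.086, and 0.088 after Benjamini-Hochberg adjustment). The difference did not pass the test. Without AL63 it was 1.52 and the breeds did not overlap. The coefficient of variation was 36.2% in AL and 41.4% in BI, larger than the 12.9% and 16.6% that counting alone gives, so the pigs of each breed differed beyond counting error.

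CBL lies on the plus strand of chr9:46416937-46512855 with 16 exon blocks and 10152 bp of exon. Exons of MCAM, a cell adhesion gene of vessel walls on the opposite strand, overlap 6481 bp of these, or 63.8%. The deposited mean of MCAM over the 8 pigs was 409 normalised counts, against 49.5 for CBL. The libraries were stranded, but the strand setting of the read counting was not given in the sources used here. Without it, reads of CBL and of MCAM in the shared exons cannot be told apart. MCAM was not analysed per pig, and its part in the values of CBL was not tested.

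PIK3R4 anchors the class III kinase on membranes. It had 17.8, 9.07, 9.68 and 10.6 normalised counts in AL, against 9.18, 70.1, 27.4 and 32.5 in BI. In all, 3 BI pigs stood above all AL pigs, with BI34 far above the others, whereas BI25 was at the level of the AL pigs. Means were 11.8 ± 4.04 in AL and 34.8 ± 25.6 in BI (SD, n = 4 each), with a log2 FC of -1.22 (SE 0.61; exact permutation p = 0.11, and 0.12 after Benjamini-Hochberg adjustment). This difference did not pass the test either. Without BI25 it was -1.72 and the breeds did not overlap, and without BI34 it was -0.78.

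The depth behind PIK3R4 was the lowest of the 4 genes. The AL pigs had 8 to 12 reads each, and their coefficient of variation of 34.3% was close to the 32.6% that counting alone gives. In BI the reads ran from 12 to 102 and the coefficient of variation was 73.5%, against 14.9% from counting, so these pigs differed among themselves beyond counting error. The 102 reads of BI34 gave a counting interval of 57.1 to 85.1 normalised counts, above those of the other 7 pigs. PIK3R4 lies on the plus strand of chr13:1730988-1815555 with 20 exon blocks and 5047 bp of exon. COL6A6 of the opposite strand ends 1920 bp away, with a deposited mean of 5.68 normalised counts.

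Levels of different genes were compared per kilobase of RefSeq exon, which leaves out the gene listed as IRS1. In AL, SHC1 had 38.0 ± 5.54 normalised counts per kb, CBL 6.85 ± 2.48 and PIK3R4 2.34 ± 0.80 (SD, n = 4). The lowest CBL pig in AL, at 3.40 per kb, was below the highest PIK3R4 pig, at 3.52 per kb, and SHC1 did not overlap with either. In BI the levels were 20.7 ± 2.87 for SHC1, 2.90 ± 1.20 for CBL and 6.89 ± 5.06 for PIK3R4, and CBL overlapped with PIK3R4. SHC1 was the highest of the 3 genes per kb in all 8 pigs. CBL was above PIK3R4 in the 4 AL pigs and in BI25, and below it in the other 3 BI pigs. The exon length of CBL includes the 6481 bp shared with MCAM. The order of CBL and PIK3R4 therefore depends on how reads there were counted, which was not given.

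The reads themselves, before division by size factors, separated the breeds less. SHC1 had 151 to 233 reads in AL and 118 to 166 in BI, and the gene listed as IRS1 had 38 to 99 and 38 to 59, so that in both the breeds overlapped. When size factors were recomputed over the 458 genes, log2 FC shifted towards BI by 0.51 with a median of ratios and by 0.65 with the upper quartile, as judged by the median of all genes. Under the first, SHC1 kept non-overlapping breeds at a log2 FC of 0.35, while the gene listed as IRS1 overlapped at 0.47. Under the second both overlapped, at 0.22 and 0.34. The median log2 FC of the 458 genes was 0.83 as deposited, close to that of SHC1 and of the gene listed as IRS1, and 0.31 and 0.18 after the rescalings. Of all 458 genes, the split of non-overlapping calls went from 221 higher in AL and 143 higher in BI to 102 and 171, and to 60 and 176. The signs of all 4 log2 FC were the same under both rescalings. Both were computed only over genes called different between the breeds, 57.4% of them with a log2 FC above 0. They can thus take up part of a breed difference. A shift towards BI can remove the separation of genes higher in AL, and can hardly do so for genes higher in BI.

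**Figure D2:**
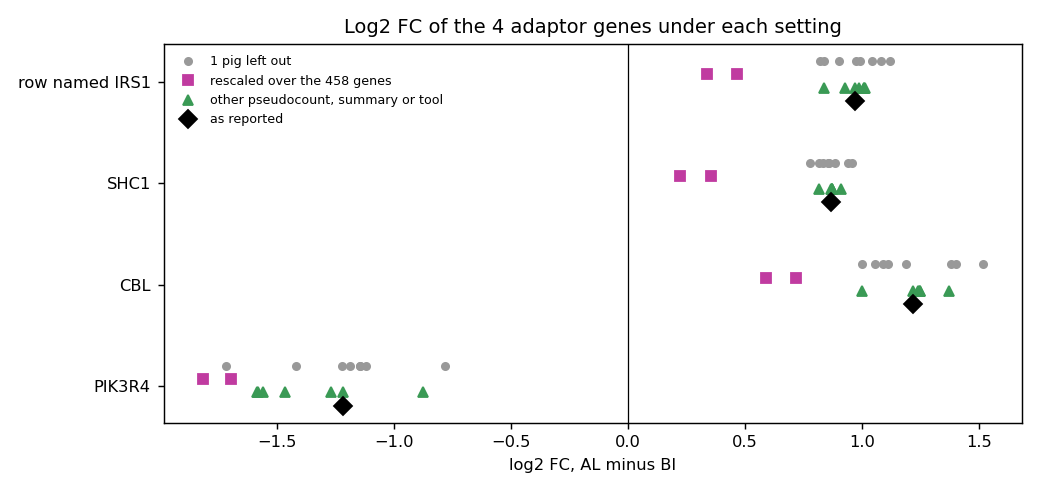
Log2 FC (horizontal axis, AL minus BI) of the 4 genes as reported (diamonds), with 1 pig left out (dots), after rescaling over the 458 genes (squares) and with another pseudocount, summary or tool (triangles). All points of SHC1, CBL and the gene listed as IRS1 are above 0 and all those of PIK3R4 below it, and the rescaled values lie lower than the reported ones, between 0.22 and 0.72 for the first 3 genes.

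A ratio of 2 genes within a pig is free of the size factor, apart from the pseudocount. The 6 possible log2 ratios were compared between the breeds. The log2 ratio of SHC1 to PIK3R4 was 3.75 to 4.40 in the AL pigs and 0.55 to 3.41 in the BI pigs, and that of the gene listed as IRS1 to PIK3R4 was 1.61 to 3.33 and -0.82 to 1.56. Both were higher in every AL pig than in every BI pig. Each sets a gene with a higher mean in AL over one with a higher mean in BI. All were chosen for a breed difference, so the direction of these ratios follows from that choice. The differences were 2.08 (SE 0.60) and 2.19 (SE 0.61), each with an exact permutation p of 0.029. After Benjamini-Hochberg adjustment over the 6 ratios it was 0.086, so neither passed the correction. As 0.029 is the smallest possible p, passing required most of the 6 ratios to reach it. CBL to PIK3R4 differed by 2.44 (SE 0.91; exact permutation p = 0.086) with overlap, BI25 at 1.97 being above AL44 and AL63.

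Among the 3 genes with higher means in AL, no ratio separated the breeds. The gene listed as IRS1 against SHC1 differed by 0.11 (SE 0.32; exact permutation p = 0.77), and its log2 ratio was below 0 in all 8 pigs. Against CBL it differed by -0.25 (SE 0.54; exact permutation p = 0.71). SHC1 against CBL differed by -0.35 (SE 0.41; exact permutation p = 0.37), with SHC1 above CBL in all 8 pigs. At these standard errors, changes in the ratio well under 1 on the log2 scale were not detectable.

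**Figure D3:**
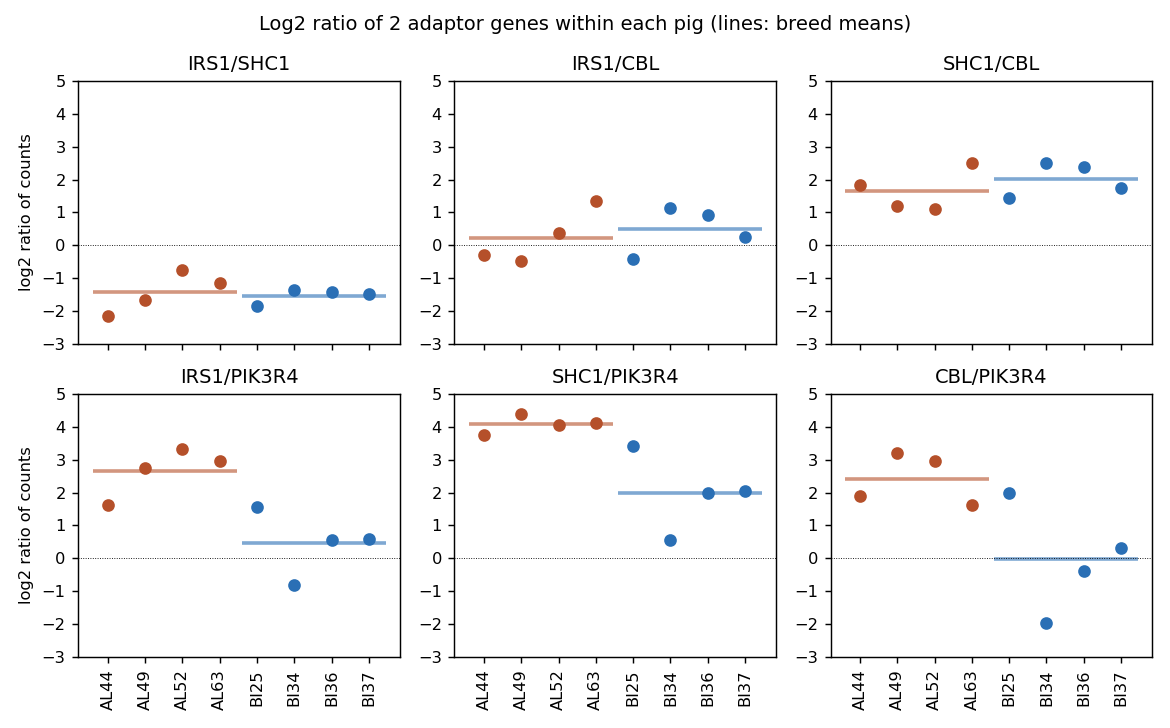
Log2 ratio of the counts (plus 1) of each pair of genes in each pig (vertical axis), with IRS1 standing for the gene listed under that name. Points are pigs and lines are breed means. In the ratios of SHC1 and of IRS1 to PIK3R4 all AL points lie above all BI points, and in the other 4 panels the breeds overlap.

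The 4 genes also varied within a breed in different orders. In AL, SHC1 was highest in AL44 and lowest in AL52, whereas the gene listed as IRS1 was lowest in AL44 and highest in AL52, and CBL was lowest in AL63. In BI, the gene listed as IRS1, SHC1 and CBL were all highest in BI37. CBL and SHC1 were lowest in BI34, the pig with the most PIK3R4. Likeness over all 8 pigs was measured as the root mean square difference of log2 profiles, each centred on its own mean. It was 0.40 between SHC1 and the gene listed as IRS1, 0.54 between SHC1 and CBL, 0.68 between CBL and the gene listed as IRS1, and 1.27 to 1.65 between PIK3R4 and the others.

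Some named genes of the table were more alike to each of the 4 than these were to each other. For SHC1 they were GLS2, a mitochondrial glutaminase (0.085), the endonuclease subunit EME1 (0.13) and the prostaglandin receptor PTGDR2 (0.13), against a median of 0.76 over all named genes. For the gene listed as IRS1 they were the vessel-derived EGFL7 (0.17), the zinc finger gene ZNF7 (0.20) and the ribosome maturation gene TSR3 (0.22), against 0.74. CBL was most alike to PTRH2 (0.33), RABEPK (0.34) and RBM7 (0.39), against 0.89. PIK3R4 was most alike to IQGAP2 (0.36), NT5C (0.44) and INTS11 (0.46), against 1.27. These genes come from a table chosen for breed differences, which alone brings profiles close.

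EGFL7 could not be placed by symbol in RefSeq. Like CBL, 8 of the other 11 genes share exon bases with an opposite-strand gene, namely EME1, PTGDR2, TSR3, PTRH2, NT5C, GLS2, RBM7 and INTS11. The shared length ran from 113 bp in INTS11 to 1891 bp in EME1. Over the 385 genes of the table that could be placed by symbol, 145 (37.7%) did so. Whether such overlap bears on the profiles was not tested.

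**Figure D4:**
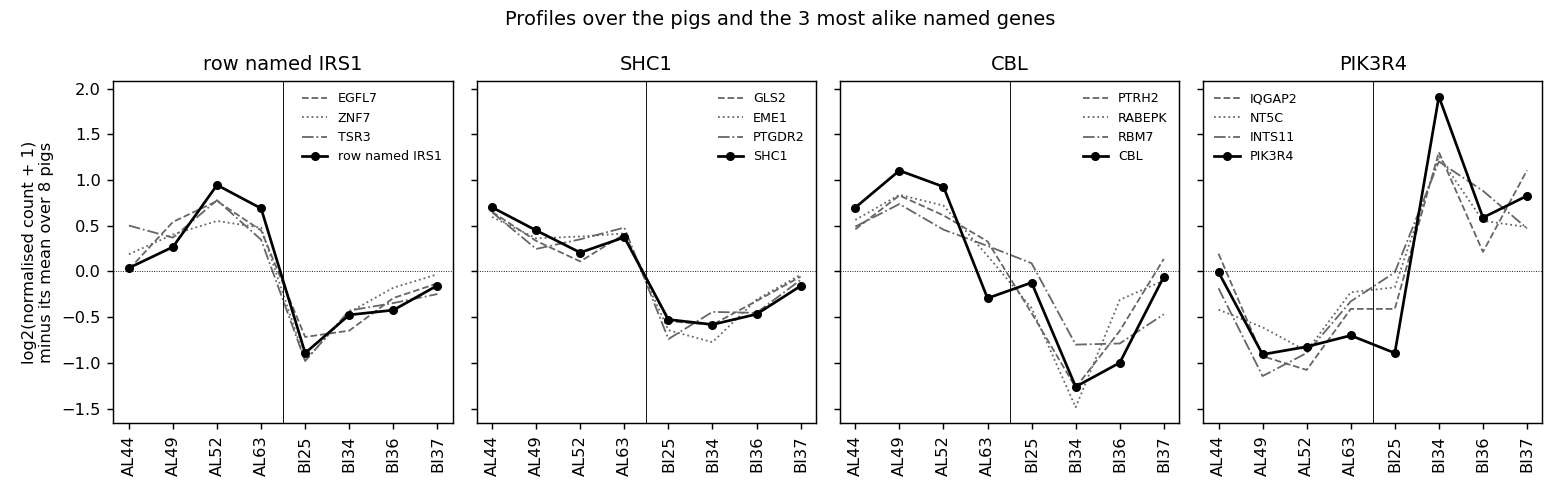
Log2(normalised count + 1) minus its mean over the 8 pigs (vertical axis) for each of the 4 genes (black, points) and its 3 most alike named genes (grey), with AL pigs left and BI pigs right of the line. The profile of SHC1 nearly covers that of GLS2, at a root mean square difference of 0.085, while PIK3R4 peaks in BI34 above its nearest genes.

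The 4 genes were set beside 170 other genes of the insulin and growth factor pathways in 10 lists. Of these, 137 had a deposited mean count and 20 had values per pig. Among the 20, 6 were higher in every AL pig, 9 were higher in every BI pig and 5 overlapped. The share without overlap, 75%, was near the 79.5% of the whole table, and the median log2 FC was -0.70 against 0.83.

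Upstream of the adaptors, the genes with values per pig were higher in BI. The growth factor IGF2 had 298 ± 51.9 normalised counts in AL and 551 ± 229 in BI (log2 FC -0.82, SE 0.29). IGFALS, which holds IGF1 and IGF2 in a circulating complex, had 9.30 to 26.7 normalised counts in AL and 28.3 to 81.1 in BI (log2 FC -1.27, SE 0.45). TIE1, an endothelial receptor tyrosine kinase, had 13.9 ± 3.44 and 38.9 ± 10.2 (log2 FC -1.41, SE 0.26). In each, every BI pig was above every AL pig (exact permutation p = 0.029, n = 4 per breed). Of the 458 genes, 79.5% separated the breeds in either direction. The insulin receptor INSR and the receptor IGF1R had deposited means of only 5.21 and 7.94 normalised counts over the 8 pigs and were not analysed per pig.

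Other adaptors went both ways. FRS2, which links fibroblast growth factor receptors to GRB2, had 11.9, 29.9, 38.7 and 22.6 normalised counts in AL, against 0.765, 0.687, 0.945 and 2.50 in BI. Its BI pigs had 1 to 3 reads each, and the ratio of summed reads per size factor was 22.7 (exact 95% counting interval 10.1 to 63.5). NUMBL, an adaptor related to the NOTCH inhibitor NUMB, was higher in BI (log2 FC -0.99, SE 0.33). SH2D3C, which joins receptors to CAS proteins, overlapped at a log2 FC of -1.36 (SE 0.44). Of the adaptors closest to the 4 genes, IRS2 had a deposited mean of 22.7 normalised counts and GRB2 one of 15.8.

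In the raft branch of CBL, FLOT1, a flotillin of lipid rafts, was higher in AL, with 10227 ± 1766 normalised counts against 5211 ± 1015 in BI (log2 FC 0.98, SE 0.18). Its breeds overlapped after either rescaling. The 3′ end of TUBB on the opposite strand lies 917 bp from that of FLOT1, with a deposited mean of 1710. In receptor removal, the step that CBL starts, the endocytic genes AP2B1 (57.0 to 96.9 normalised counts against 21.4 to 48.3) and DNM2 (973 to 1093 against 607 to 757, log2 FC 0.60, SE 0.10) were higher in AL. Their rescaled log2 FC were 0.49 and 0.37 for AP2B1, which kept non-overlapping breeds only under the first. For DNM2 they were 0.08 and -0.05, with overlap and a change of sign under the upper quartile. CBLB and CBLC, the other CBL genes, had deposited means of 3.91 and 11.2 normalised counts.

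None of the 10 class I phosphatidylinositol 3-kinase genes, the partners of IRS1, had values per pig. Of the 7 with a deposited mean, the regulatory subunits PIK3R1 and PIK3R2 had 19.4 and 22.5 normalised counts. In the class III list, where PIK3R4 belongs, BECN1 and ATG14 of the same complexes had deposited means of 7.31 and 522, with no comparison of breeds. SBF1, a pseudophosphatase of the myotubularin family, was higher in BI (1658 ± 103 against 2467 ± 213, log2 FC -0.57, SE 0.08), while its relative MTMR1 overlapped at a log2 FC of 0.74 (SE 0.19).

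Downstream, in the AKT list, hexokinase HK2, which traps glucose in the cell, was higher in AL (34.1 to 63.5 normalised counts against 9.17 to 23.6, log2 FC 1.68, SE 0.33), but overlapped at 1.06 after the upper quartile. The other 3 genes overlapped, the phosphoinositide-binding PLEKHA2 at 1.59, the glycogen synthase GYS1 at 0.98 and the mTORC1 regulator FLCN at -1.13. After the rescalings, which shift log2 FC towards BI, FLCN was higher in every BI pig, at -1.61 and -1.74. GYS1 was listed at 57175 to 215005 normalised counts per pig, the 3′ end of the ferritin gene FTL on the opposite strand being 1844 bp from its own. In the list of the RAS and ERK branch, on which SHC1 acts, the RAS-inactivating protein RASAL3 was higher in AL (log2 FC 1.85, SE 0.56). The transcription factors FOS (-1.21, SE 0.40) and EGR1 (-1.28, SE 0.39) were higher in BI, as was DUSP1, a phosphatase of MAP kinases (-1.48, SE 0.36). The list also holds the transcription factor STAT3, which the paper describes as activated by interleukins. STAT3 was higher in BI too (-0.90, SE 0.16). All 5 separated the breeds (exact permutation p = 0.029, n = 4 per breed). As 79.5% of the 458 genes did so in either direction, this shows nothing particular about these genes. RASAL3 overlapped after both rescalings, at 1.35 and 1.22. The 4 genes higher in BI did not, but both rescalings shift log2 FC towards BI and could hardly undo their separation.

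**Figure D5:**
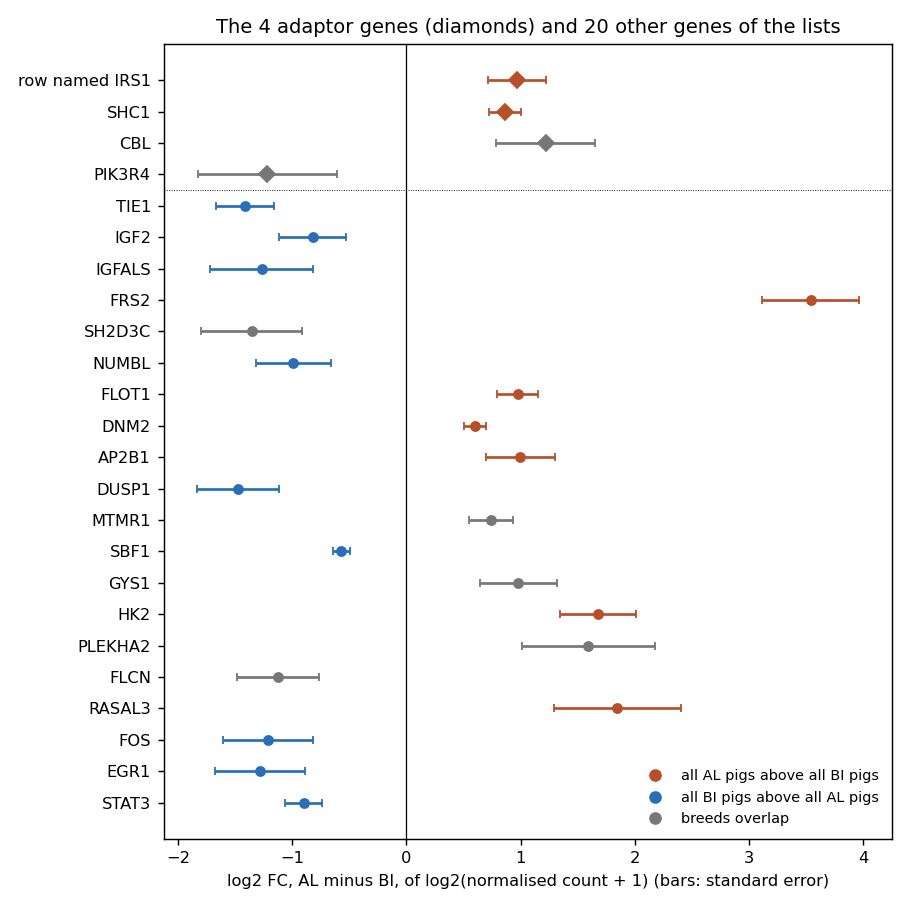
Log2 FC (horizontal axis, AL minus BI) with its standard error for the 4 genes (diamonds) and the 20 genes of the pathway lists with values per pig (dots), coloured by whether all AL pigs were above all BI pigs, the reverse, or neither. Of the 20, 6 are higher in AL, 9 higher in BI and 5 overlap, with FRS2 farthest to the right at 3.54.

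The tissue label was checked with cell type markers, and in bulk tissue fewer cells of a type and less RNA per cell cannot be told apart. Of 13 adipocyte markers 12 had a deposited mean, from 10.9 for PPARG to 1567 for PLIN1. Only 3 had values per pig, as genes that the authors had called different, and the other markers were not analysed per pig. Per kb of exon the 12 means ran from 3.77 for PPARG to 995 for PLIN1, against 3702 for FLOT1 and 41783 for GYS1. Why FLOT1 and GYS1 stood above the adipocyte markers was not tested. The markers are no check of how reads were counted. FABP4 was higher in AL but overlapped after both rescalings, at 0.59 and 0.46, and LEP and CEBPA overlapped. The sum of the 3, as deposited, was 1080 to 1501 normalised counts in AL and 523 to 755 in BI, without overlap, as for SHC1 and the gene listed as IRS1. It is mostly FABP4, so it adds little to that gene, and it was not recomputed after the rescalings. Of 10 endothelial markers, EGFL7 was higher in AL, though it overlapped after both rescalings at 0.38 and 0.24. TIE1 and CLEC14A were higher in BI as deposited and after both rescalings, which shift log2 FC towards BI. The sum of these 3 markers, mostly EGFL7, was 2182 to 3642 in AL and 1386 to 1982 in BI. The muscle marker MYBPH and GPR171, the 1 lymphocyte marker of 7 with a deposited mean, were higher in AL and the muscle marker MYH7 overlapped. Listed markers of macrophages, fibroblasts, smooth muscle and skin had no values per pig, and no marker with a deposited mean was at 0. The part of cell makeup in the values of the 4 genes was not tested.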

How the data were processed

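The authors trimmed stranded paired-end reads with Trim Galore 0.5.0, aligned them to Sscrofa11.1 with HISAT2 2.1.0, converted the alignments with SAMtools 1.9, counted reads per gene with HTSeq 0.11.1 and fitted DESeq2 (version not given in the sources used here). The deposited signal, made by the authors for 458 genes (47 of them unnamed), is each pig's read count over its DESeq2 size factor. A deposited table of 10710 genes gave the mean of this signal. Its log2 fold changes, standard errors, test statistics and p-values are the authors' own comparison and were not used.

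The 4 genes and the lists were chosen with earlier results of these data known, and 1 listed gene is not reported here. All 8 pigs entered each test, with no covariate. Reads were recovered as whole numbers (within 0.05 reads) for 100% of values, and intervals from them cover counting error only. Genes named were the 4 genes, every listed gene with values per pig, the 3 named genes most alike to each of the 4, annotated neighbours within 5 kb, and a few listed genes by their deposited mean. Positions came from RefSeq. Adjustment was by Benjamini-Hochberg with a threshold of 0.05.

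Alternatives were pseudocounts of 0.1 and 10 in place of 1, ratios of means, differences of medians, both rescalings, genes with a mean of at least 50, leaving out each pig, limma 3.58.1, and edgeR 4.0.16 and DESeq2 1.42.0 on recovered reads. Leaving out pigs and rescaling for the counts over the 4 genes and the lists were added after seeing the data. The calculations were tested on simulated data. Work was done in R 4.3.3 and in Python 3.11.15, with tables in pandas 2.3.3 and NumPy 2.4.6, exact intervals from SciPy 1.17.1, and Matplotlib 3.10.9 for plots.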

Additional observations from a re-analysis of the deposited data

Results flagged for a closer look

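In groups of 4 pigs, a pig was marked where its gap to the nearest other pig, divided by the range of the group, was above Dixon's 95% critical value. This was done for 32 genes in both breeds. None of the 4 adaptor genes was marked. Of the 64 groups, 6 were, where chance marks about 1 in 20. IGF2 was 894 normalised counts in BI25 against 411 to 457 in the other BI pigs. Its breeds did not overlap, which leaving out a pig cannot change. FRS2 was 2.50 in BI37 against 0.687 to 0.945, a difference of 3 reads against 1. SH2D3C was 25.8 in AL52 against 8.89 to 9.98 in the other AL pigs, which alone made its breeds overlap. GYS1 was 138340 in AL52 against 209617 to 215005. EGR1 was 404 in BI36 against 284 to 299, and LEP was 86.0 in BI36 against 24.2 to 32.1. The cause of these values was not tested.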

How the results depend on the processing

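There were 4 pigs per breed and a table of genes already chosen for a breed difference. The limits are few pigs, few reads for PIK3R4, the scaling and the strand setting of the counting, which was not given. Of 158 values recomputed under another setting, 142 were labelled the same. For a difference or ratio this meant the same direction and call, and for a count of genes a similar size. Many of these labels could not come out otherwise, as pseudocounts and left-out pigs cannot undo a separation. The 142 is therefore no measure of robustness. After a median of ratios the gene listed as IRS1 was 0.47 (exact permutation p = 0.11) and 1 of the 4 genes did not overlap. After the upper quartile it was 0.34 (exact permutation p = 0.23), SHC1 was 0.22 (exact permutation p = 0.086), 0 of the 4 genes did not overlap, and 236 of the 458 genes did not, against 364. Both rescalings used only genes chosen for a breed difference, so they cannot tell whether the deposited scaling is at fault. How much of the loss comes from that choice was not tested. The tools that borrow spread across genes called CBL and PIK3R4. The log2 FC of CBL was 1.22 in limma, 1.24 in edgeR and 1.25 in DESeq2 (adjusted p = 0.0084, 0.0085 and 0.0035), and that of PIK3R4 was -1.22, -1.59 and -1.58 (0.032, 0.011 and 0.0070). A call rests on overlap of the pigs, which other pseudocounts, ratios of means and differences of medians cannot change. For these settings only the log2 FC was recomputed, and its sign was the same for each of the 4 genes.

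Leaving out each pig gave 0.82 to 1.12 for the gene listed as IRS1, 0.78 to 0.96 for SHC1, 1.001 to 1.52 for CBL and -1.72 to -0.78 for PIK3R4, and 2 to 3 of the 4 genes without overlap. With 3 pigs against 4, only overlap was read and no p was computed. Leaving out a pig cannot make separated breeds overlap. Counts of genes without overlap could therefore only stay or rise, and are no check on single pigs. CBL did not overlap without AL63 (1.52), nor PIK3R4 without BI25 (-1.72), nor the ratio of CBL to PIK3R4 without BI25 (3.10, range 1.79 to 3.10). The ratio of the gene listed as IRS1 to SHC1 changed sign without AL52 (-0.12, range -0.12 to 0.34). The ratios of SHC1 and of the gene listed as IRS1 to PIK3R4 ranged from 1.60 to 2.55 and from 1.76 to 2.55. Of the 458 genes 368 to 411 did not overlap, and of the 20 listed genes 15 to 19. No paired analysis was possible because the breeds share no replicate number.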
